A study of Mus musculus with 24 samples.

Results

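Astrocytes of the adult hippocampus were compared between mice carrying an astrocyte-directed recombinase against Nfia and their controls, with 3 libraries in each group and 6 of the series' 24 libraries in all. All genes with a normalised read count of at least 20 in at least 3 of the 6 libraries were tested, which left 11065 genes. The libraries labelled knockout came from NFIAfl/fl; Aldh1l1-CreER; Aldh1l1-GFP mice, and the control libraries from NFIAfl/fl; Aldh1l1-GFP mice, all of strain C57BL6 and 20 weeks old. Both groups thus carried the floxed Nfia allele and the green fluorescent reporter, and the CreER recombinase was carried by the labelled knockouts alone, so deletion and the presence of CreER cannot be told apart. Both transgenes bear the name of Aldh1l1, a folate enzyme gene of astrocytes, whose promoter directs them to these cells. Hippocampi were dissociated, fluorescent cells were sorted, and libraries were built from 5 ng of total RNA. The labels give no tamoxifen schedule and do not say which libraries came from separate animals, so the p-values measure the spread between these libraries, which may in part be technical.

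NFIA belongs to the nuclear factor I proteins, DNA-binding factors that switch on glial genes as neural progenitors become astrocytes, and it stays expressed in mature astrocytes. Gfap, the gene of the astrocyte intermediate filament protein, is a long-studied target of these factors. The hippocampus lies against the ventricle, where the choroid plexus, an epithelium that secretes cerebrospinal fluid, and the ciliated ependyma are close to the tissue that is dissected. Genes of these epithelia were therefore kept apart from genes of astrocytes.

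Recovered reads ranged from 9307505 to 24297573 in libraries labelled knockout and from 5543804 to 14151670 in control libraries. The targeted gene, Nfia, on the plus strand of chromosome 4 (97772734 to 98118874, mm10), went against the label. It had normalised read counts of 10614, 11676 and 13320 in the libraries labelled knockout, against 4556, 7457 and 6634 in control libraries. All libraries labelled knockout were above every control. The log2 fold change was 0.96 (SE 0.20, adjusted p = 0.0194, limma). The call was lost without any 1 of the libraries labelled knockout, with an adjusted p of up to 0.117. In the series' other regions, olfactory bulb, cortex and brainstem, Nfia had log2 fold changes of 0.82, 0.72 and 1.10. Their adjusted p in the limma fit of all 24 libraries was 0.0674, 0.0848 and 0.00246. In each of these regions all libraries labelled knockout were above every control. Counts were deposited per whole gene, so reads from the floxed exon could not be separated from the rest, and the counts do not check the deletion. The Y-linked gene Ddx3y had reads in 1 library of each group, labelled knockout 1 (590) and control 1 (695), and 0 in the other 4, so both groups held 1 library with Y-linked reads.

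Among all genes tested, 402 were called at an adjusted p under 0.05, which is 3.63% of them. In libraries labelled knockout 109 genes (0.985%) were higher and 293 (2.65%) were lower than in controls. The median log2 fold change of all tested genes was 0.02. Of the 402 genes, 147 kept their call whichever library was left out. Without the libraries labelled knockout 1, 2 and 3 the count was 256, 220 and 197.

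On the log2(value + 5) scale, the largest decreases were in genes of the choroid plexus. Ttr, which encodes the thyroid hormone carrier transthyretin, had normalised read counts of 2581, 5660 and 2010 in libraries labelled knockout, against 134843, 66790 and 126359 in controls. Prlr, the prolactin receptor gene (chromosome 15, 10177238 to 10349180, plus strand), had 62.0, 53.0 and 29.4 in libraries labelled knockout and 3494, 2001 and 2646 in controls. Enpp2, which encodes the lysophospholipase autotaxin, had 1789, 3165 and 1314 in libraries labelled knockout and 75243, 34572 and 65676 in controls. The groups did not overlap for any of these genes, and control 2 was the lowest control each time. The log2 fold changes were -5.08 for Ttr (SE 0.42, adjusted p = 0.000568), -5.70 for Prlr (SE 0.27, adjusted p = 7.03e-07) and -4.83 for Enpp2 (SE 0.38, adjusted p = 0.000354). Kl, the gene of klotho, averaged 165 ± 69.1 in libraries labelled knockout and 4114 ± 1676 in controls (SD, n = 3 each). Folr1, a folate receptor gene, averaged 7.21 ± 12.1 in libraries labelled knockout and 264 ± 115 in controls (SD, n = 3 each). Clic6, an intracellular chloride channel gene, averaged 163 ± 68.6 in libraries labelled knockout and 1836 ± 634 in controls (SD, n = 3 each). All of these passed the limma test, Kl with a log2 fold change of -4.60 (adjusted p = 0.00402), Folr1 with -4.81 (adjusted p = 0.00152) and Clic6 with -3.49 (adjusted p = 0.00372). Without control 1 the calls of Ttr (adjusted p = 0.0808) and Enpp2 (adjusted p = 0.0598) were lost. In bulk libraries, fewer cells of a type and less RNA per cell cannot be told apart.

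**Figure D1:**
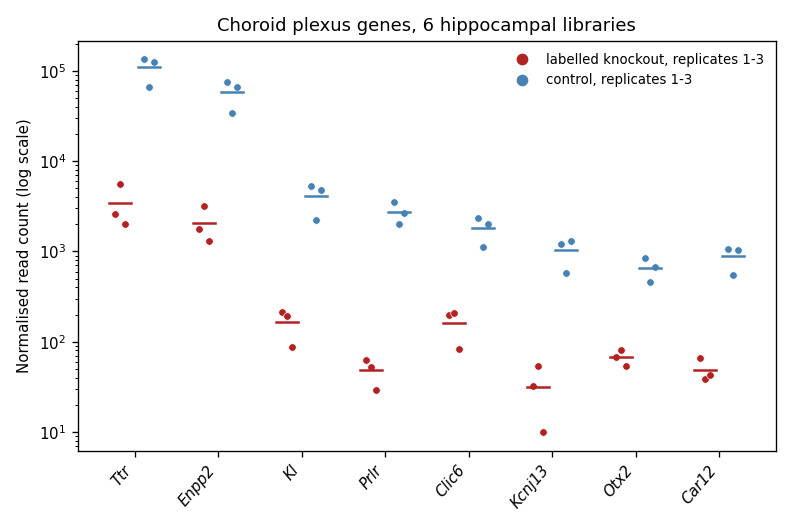
Normalised read counts (log scale) of 8 choroid plexus genes in the 3 hippocampal libraries labelled knockout and the 3 controls; each point is a library and each line a group mean. For every gene the libraries labelled knockout lie below all controls, with Prlr at 29.4 to 62.0 against 2001 to 3494.

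Further choroid plexus genes were also lower. Of 55 tested members of a written list of choroid plexus epithelium genes, 47 were lower in libraries labelled knockout and 0 were higher. The shares of all genes tested were 2.65% lower and 0.985% higher. The list had a median log2 fold change of -3.42. The summed level of the list was 10741 to 16693 in libraries labelled knockout and 126457 to 258463 in controls. Slc4a5, a sodium bicarbonate cotransporter gene, fell by 5.22 on the log2 scale (adjusted p = 3.44e-05). Otx2, a homeobox gene needed to form the choroid plexus, had 67.5, 82.0 and 54.0 normalised reads in libraries labelled knockout and 848, 457 and 681 in controls (log2 fold change -3.17, adjusted p = 3.45e-05). Lbp, a lipopolysaccharide binding protein gene, Car12, a carbonic anhydrase gene, and Kcnj13, an inward rectifier potassium channel gene, had log2 fold changes of -5.31, -4.02 and -4.93.

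To find genes that travel with these without using the hippocampus, each gene was correlated with the mean of Ttr, Kl, Folr1, Clic6 and Prlr over the 18 libraries of the other 3 regions, after centring on each group. Genes with a Pearson r of at least 0.7 joined the written list, giving a choroid plexus set of 326 genes, 265 of them by correlation only. Members just inside the limit were Dpp7 (r 0.70, log2 fold change -0.97) and Ccbe1 (0.70, -2.07), and just outside it were Snx17 (0.70, -0.04) and Acad8 (0.70, -0.66). Of the set, 257 genes were tested and 124 (48.2%) were called, all lower in libraries labelled knockout. The median log2 fold change of its tested members was -1.28. Of the 202 tested members that joined by correlation only, 77 were lower. The set took 0.942% to 1.09% of reads in libraries labelled knockout and 3.50% to 7.01% in controls.

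Of 30 listed genes of ependyma and motile cilia with deposited values, 12 passed the filter. Of these 12 tested genes, 8 were lower and 0 were higher in libraries labelled knockout. Foxj1, Rsph1 and Dnah11 were under 20 in every library labelled knockout and passed the filter through the controls alone. Such a filter favours lower calls, so the count of 8 is not a share of the whole list. The shares of all genes tested were 2.65% lower and 0.985% higher. The list had a median log2 fold change of -2.04, and 6 of the 12 belonged to the choroid plexus set. Of the 8 lower genes, 5 belonged to that set, among them Rsph1 and Dnah11, and the other 3 did not. Of the 8 calls, that of Foxj1 alone was kept in all 6 fits that each left out 1 library. Foxj1, the master regulator of motile cilia, had normalised read counts of 19.7, 5.58 and 11.4 in libraries labelled knockout, against 72.1, 65.1 and 66.3 in controls (log2 fold change -2.16, SE 0.42, adjusted p = 0.0126, r 0.65). Rsph1, a radial spoke gene, and Dnah11, an axonemal dynein gene, fell by 2.76 and 2.53 on the log2 scale, and their calls were lost without control 1 or control 2. Of the list, Mcidas, a regulator of multiciliated cells, was at 0 in all 6 libraries.

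Outside the choroid plexus set, 278 of 10808 tested genes (2.57%) were called, 109 higher (1.01%) and 169 lower (1.56%) in libraries labelled knockout. All increases in the hippocampus were thus outside the set. The 2 directions differed in their tie to the choroid plexus genes. Of the 109 higher genes, 102 had an r under 0.3 and 1 had an r of at least 0.5. Of the 169 lower genes, 63 had an r under 0.3, 33 lay from 0.3 to 0.5 and 73 from 0.5 to 0.7, so that 43.2% had an r of at least 0.5, against 6.75% of all genes tested outside the set. The part of choroid plexus RNA in these 73 decreases was not tested. With the limit lowered to 0.3, a value chosen after seeing the data, 165 calls stayed outside, 102 higher and 63 lower. Without the libraries labelled knockout 1, 2 and 3, the count outside the set was 163, 127 and 111.

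**Figure D2:**
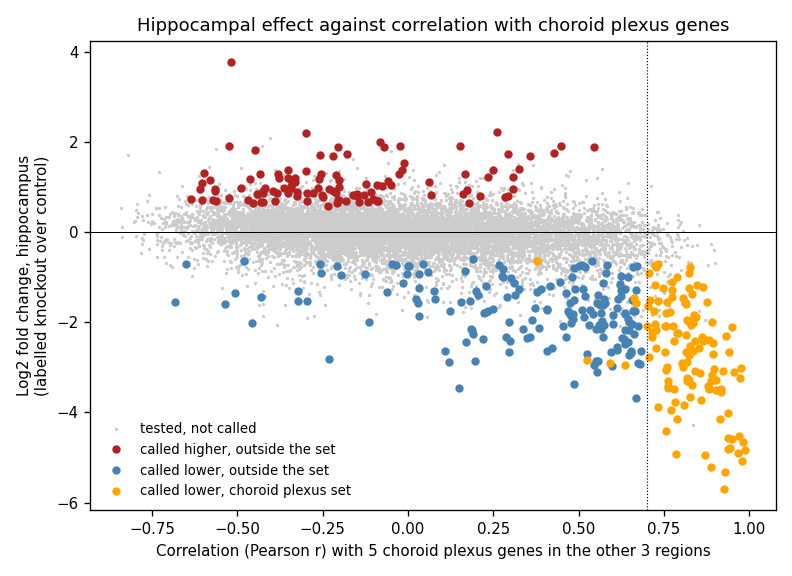
Log2 fold change in hippocampus, libraries labelled knockout over controls, against each gene's Pearson r with the 5 choroid plexus genes in the other regions; each point is a tested gene and the dotted line marks an r of 0.7. Members of the written list lie in the choroid plexus set also where their r is under 0.7. The 124 called genes of the set are all below 0, and the 109 genes called higher lie mostly under an r of 0.3.

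Gfap (chromosome 11, 102887336 to 102900912, minus strand) fell in the libraries labelled knockout. Its normalised read counts were 1625, 1054 and 885 in libraries labelled knockout, against 3750, 4051 and 3419 in controls. Every library labelled knockout was below every control, with labelled knockout 1 the highest of its group. The level was 3.15-fold lower (log2 fold change -1.70, SE 0.20, adjusted p = 0.000532), and the call was kept in all 6 fits that left out 1 library. Gfap had an r of 0.25 with the choroid plexus genes. Of 18 tested genes of intermediate filaments and reactive astrocytes, Gfap alone was called, against 3.63% of all genes tested. The list had a median log2 fold change of -0.38. Vim, the gene of vimentin, averaged 671 in libraries labelled knockout and 493 in controls (adjusted p = 0.295), and Serpina3n, a protease inhibitor gene of reactive astrocytes, had a log2 fold change of -0.87 (adjusted p = 0.514).

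Maob (chromosome X, 16709282 to 16817366, minus strand), which encodes the monoamine oxidase of astrocytes, also fell. It had normalised read counts of 365, 445 and 382 in libraries labelled knockout, against 997, 1153 and 1018 in controls. The groups were far apart and each was tight. The log2 fold change was -1.40 (SE 0.15, adjusted p = 0.000269), kept in every fit without 1 library, and its r with the choroid plexus genes was 0.31.

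The genes Igfbp5, Cryab, Agt, Emp2, Cybrd1 and Lipa were also lower at an r under 0.3, and each of these calls was kept in all 6 fits without 1 library. Igfbp5, an insulin-like growth factor binding protein gene, had 582, 989 and 1031 normalised reads in libraries labelled knockout, against 1878, 3274 and 2516 in controls. Its groups did not overlap (log2 fold change -1.56, adjusted p = 0.00524). Cryab, the gene of the small heat shock protein alpha B-crystallin, had 409, 435 and 240 in libraries labelled knockout, against 1094, 1121 and 794 in controls. Agt, the gene of angiotensinogen, which brain astrocytes produce, had 157, 153 and 150 in libraries labelled knockout, against 381, 317 and 426 in controls. In both genes the labelled knockouts were all below the controls, with log2 fold changes of -1.49 (adjusted p = 0.00306) and -1.25 (adjusted p = 0.00283). Emp2, a tetraspan membrane protein gene, fell by 1.32 on the log2 scale, Cybrd1, a ferric reductase gene, by 1.75 and Lipa, the lysosomal acid lipase gene, by 1.31.

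Several genes of low level fell further. Hhatl, a gene related to the Hedgehog acyltransferase gene, had 8.38, 3.91 and 2.40 normalised reads in libraries labelled knockout, against 64.4, 64.2 and 59.2 in controls. Kcng4, a modulatory potassium channel subunit gene, had 6.50, 2.23 and 5.70 in libraries labelled knockout, against 35.1, 61.4 and 75.6 in controls. Fndc1, a gene of a fibronectin type III domain protein, had 7.55, 1.12 and 6.30 in libraries labelled knockout, against 123, 74.4 and 106 in controls. All 3 genes were under 10 normalised reads in every library labelled knockout and above every one of these in each control. They passed the filter through the controls alone. For Hhatl and Fndc1, separate groups were a condition of naming them among the largest changes. Fold changes were taken after adding 5 to each value, which understates changes at this level, and came to -2.82 for Hhatl, -2.64 for Kcng4 and -3.45 for Fndc1 on the log2 scale. Chrnb4, a nicotinic receptor subunit gene chosen after its values were seen, was at 0 in all 3 libraries labelled knockout and at 26.8, 36.3 and 21.6 in controls, at least 93.1-fold lower when 3 reads over the group are taken as the floor. Rnf152, an E3 ubiquitin ligase gene, fell by 2.86 on the log2 scale (adjusted p = 0.00372).

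The lower genes of largest change outside the set also included 11 with an r between 0.49 and 0.68, for which the reservation on choroid plexus RNA holds. Among them were Zfp185 (r 0.67), Chdh (0.49), the choline dehydrogenase gene, Cd55 (0.55), a complement regulator gene, Sgms2 (0.67), a sphingomyelin synthase gene, Col18a1 (0.65), a basement membrane collagen gene, and Slc2a12 (0.56), a sugar transporter gene. Zfp185 fell by 3.68 on the log2 scale (adjusted p = 0.00152), and Sgms2 fell by 2.90 (adjusted p = 0.000838). The ion cotransporter gene Slc12a2, which choroid plexus epithelium and glia both use, had an r of 0.67 and fell by 1.29 (adjusted p = 0.000697).

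Cdh4 (chromosome 2, 179442431 to 179899373, plus strand), which encodes the adhesion protein R-cadherin, had the smallest p of all higher genes. It had normalised read counts of 440, 422 and 414 in libraries labelled knockout, against 115, 116 and 97.2 in controls. Both groups were tight and well separated, with a level 3.89-fold higher (log2 fold change 1.92, SE 0.19, adjusted p = 0.000122) that was called in every fit without 1 library. Gabrg3, a GABA-A receptor subunit gene, had 132, 115 and 116 in libraries labelled knockout, against 15.3, 17.7 and 38.3 in controls. Sfrp1, a secreted inhibitor of Wnt signalling, had 1015, 1729 and 2038 in libraries labelled knockout, against 454, 558 and 357 in controls. Gabrg3 and Sfrp1 had log2 fold changes of 2.21 (SE 0.36, adjusted p = 0.00406) and 1.76 (SE 0.25, adjusted p = 0.00288). For Cdh4, Gabrg3, Sfrp1 and Rgs16, separate groups were a condition of naming them among the largest changes. The call of Sfrp1 was lost without control 1 (adjusted p = 0.0576). Rgs16, a regulator of G protein signalling, had 96.8, 69.7 and 69.9 in libraries labelled knockout, against 21.1, 10.2 and 9.68 in controls (log2 fold change 2.20, adjusted p = 0.00747). Its call was lost without labelled knockout 1 (adjusted p = 0.0564). The other genes of largest increase were Fam84a, Pdzph1, the imprinted gene Dlk1, Igsf21, Slc22a15, Klhl15, Prss23 and the neuronal phosphatase gene Ptpn5, with log2 fold changes of at least 1.73. Of these calls, that of Fam84a was kept in all 6 fits without 1 library, those of Klhl15 and Ptpn5 in 5, Pdzph1 in 4, Igsf21 in 3, Prss23 in 2, and Dlk1 and Slc22a15 in 1. Lyn, a Src family kinase gene, rose by 1.26 on the log2 scale and Fam184a by 1.22, and both calls were kept without any 1 library. Tex15, a gene known from the male germ line, was at 63.1, 57.5 and 70.2 in libraries labelled knockout and at 0 in all 3 controls, at least 113-fold higher by the same floor of 3 reads.

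Fatty acid binding protein genes of glia were higher. Fabp5 had normalised read counts of 956, 1083 and 1206 in libraries labelled knockout, against 392, 415 and 485 in controls. Fabp7, a radial glia and astrocyte marker gene, had 1888, 2131 and 1969 in libraries labelled knockout, against 906, 1058 and 1093 in controls. Neither gene's groups overlapped, and both calls were kept in every fit without 1 library (log2 fold change 1.32, adjusted p = 0.000492 for Fabp5, and 0.97, adjusted p = 0.00256 for Fabp7). Reads of Fabp5 may be shared with near-identical processed copies. Of 41 tested genes that transport lipids or metabolise fatty acids, these 2 were higher and 1 was lower. The shares of all genes tested were 0.985% higher and 2.65% lower. The lower gene was Lcat, the cholesterol esterifying enzyme gene (log2 fold change -0.72, adjusted p = 0.0365). The call of Lcat was kept only without control 1.

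**Figure D3:**
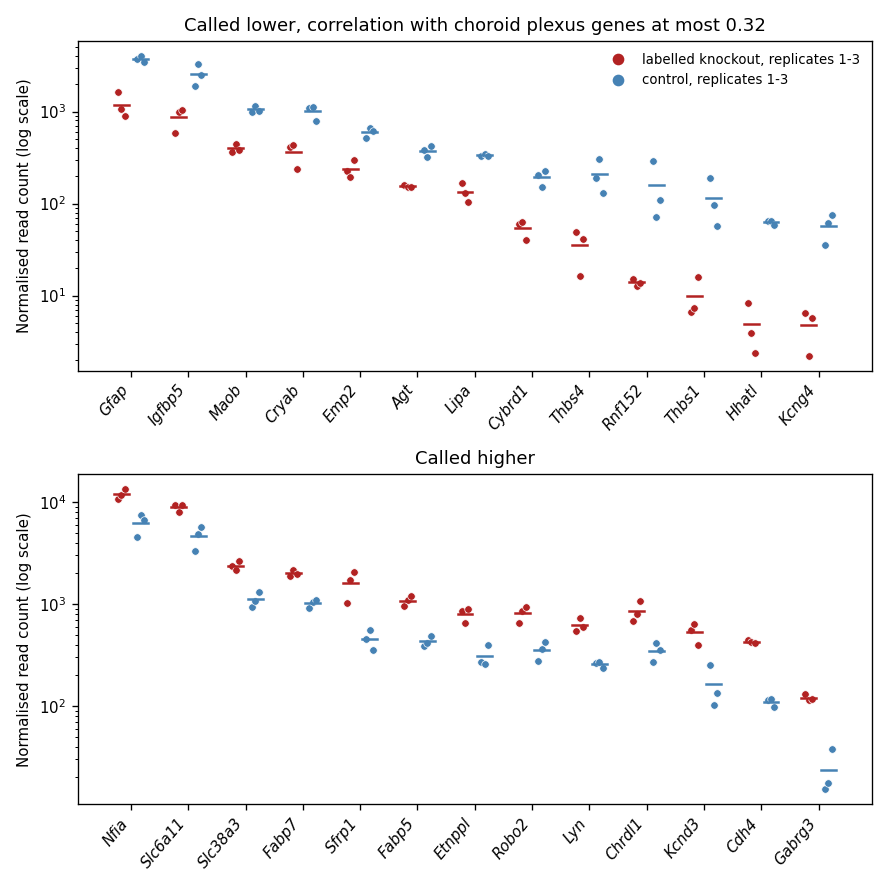
Normalised read counts (log scale) of genes outside the choroid plexus set that were called lower (top) or higher (bottom) in hippocampal libraries labelled knockout; each point is a library and each line a group mean. For every gene shown the libraries labelled knockout lie on 1 side of all controls, from Gfap at 885 to 1625 against 3419 to 4051 to Gabrg3 at 115 to 132 against 15.3 to 38.3. Separate groups were a condition of naming Rnf152, Thbs1, Hhatl, Sfrp1, Kcnd3, Cdh4 and Gabrg3 among the largest changes.

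Genes in the list of glutamate, GABA and glycine handling were called in both directions. Of 29 tested genes, 3 were higher, all of them transporter genes, and 1 was lower, the monoamine oxidase gene Maob. The shares of all genes tested were 0.985% higher and 2.65% lower. The list had a median log2 fold change of 0.26. Slc38a3, a glutamine transporter gene, had 2381, 2136 and 2627 normalised reads in libraries labelled knockout, against 942, 1074 and 1322 in controls. Slc6a11, the GABA transporter GAT-3 gene, had 9287, 8035 and 9308 in libraries labelled knockout, against 3300, 4877 and 5642 in controls. The groups did not overlap for either gene, and control 1 was the lowest library of both. Slc38a3 had a log2 fold change of 1.10 (adjusted p = 0.00237), kept without any 1 library. Slc6a11 had 0.98 (adjusted p = 0.0169), and the call was lost without any 1 of the libraries labelled knockout. The glycine transporter gene Slc6a9 had a log2 fold change of 1.00 (adjusted p = 0.0289), and its call was kept in 3 of the 6 fits without 1 library. The main glutamate transporter gene Slc1a2 averaged 356165 in libraries labelled knockout and 340155 in controls (log2 fold change 0.10, adjusted p = 0.910). Etnppl, an ethanolamine phosphate phospholyase gene of astrocytes, rose by 1.38 on the log2 scale (adjusted p = 0.00186).

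All 35 astrocyte core markers were tested, with a median log2 fold change of 0.33. Against 0.985% higher and 2.65% lower of all genes tested, 5 were higher and 2 were lower. The lower ones were Gfap and the thyroid hormone transporter gene Slco1c1. The higher ones were Aldh1l1, the mitochondrial glutamate carrier gene Slc25a18 and the metallothionein genes Mt1, Mt2 and Mt3. Aldh1l1, whose name both transgenes bear, had 1430, 1269 and 1441 normalised reads in libraries labelled knockout, against 554, 849 and 930 in controls (log2 fold change 0.86, adjusted p = 0.0254). Mt2, which binds zinc and copper, averaged 4930 ± 1863 in libraries labelled knockout and 2304 ± 312 in controls (SD, n = 3 each; adjusted p = 0.0251), and short reads may be shared between Mt1 and Mt2. None of these 5 increases was called in every fit without 1 library. The summed level of the core markers was 655270 to 764606 in libraries labelled knockout and 434037 to 708058 in controls, so the groups overlapped, and none of the markers was at 0 in all 6 libraries. The water channel gene Aqp4 had a log2 fold change of 0.42 (adjusted p = 0.407) and S100b, a calcium binding protein gene, one of -0.39 (adjusted p = 0.412).

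In the list of nuclear factor I genes and other astrocyte transcription factor genes, 42 were tested, with a median log2 fold change of 0.40. In libraries labelled knockout 5 were higher and 0 were lower, against 0.985% and 2.65% of all genes tested. The higher ones were Nfia, Sall3, Otx1, Npas3 and Tcf7l2, and 0 of these 5 calls were kept in all 6 fits without 1 library. Otx1, a forebrain homeobox gene, had 277, 258 and 313 normalised reads in libraries labelled knockout, against 126, 149 and 158 in controls (log2 fold change 0.95, adjusted p = 0.0198). Npas3, a bHLH-PAS factor gene, had a log2 fold change of 0.65 (adjusted p = 0.0233). The other family members were not called. Nfib, Nfic and Nfix had log2 fold changes of 0.41, 0.36 and 0.33, with adjusted p of 0.263, 0.309 and 0.341. Nes, the gene of the progenitor filament nestin, had a log2 fold change of -0.08 (adjusted p = 0.956).

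Of 51 tested adhesion and guidance genes, 7 were higher and 1 was lower in libraries labelled knockout, against 0.985% higher and 2.65% lower of all genes tested, with a median log2 fold change of 0.39. Besides Cdh4 and Igsf21, these were the Slit receptor gene Robo2 (log2 fold change 1.19, adjusted p = 0.00445), the netrin receptor gene Unc5c (1.53, adjusted p = 0.00558), the N-cadherin gene Cdh2 (0.81, adjusted p = 0.0165), the neuroligin gene Nlgn2 (0.91, adjusted p = 0.0185) and the giant cadherin gene Fat4 (0.70, adjusted p = 0.0345). Robo2 had 650, 862 and 931 normalised reads in libraries labelled knockout, against 278, 363 and 427 in controls. Unc5c had 221, 356 and 392 in libraries labelled knockout, against 121, 121 and 79.3 in controls. In both genes all labelled knockouts were above all controls, and both calls were kept without any 1 library. The calls of Cdh2 and Igsf21 were lost without any 1 of the libraries labelled knockout. Of the 8 calls in the list, 3 were kept in all 6 fits without 1 library, those of Cdh4, Robo2 and Unc5c. Cntn1, the contactin gene, was the lower one (log2 fold change -0.71, adjusted p = 0.0390).

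Secreted regulators of synapses were called in both directions. Of 34 tested, 2 were higher and 3 were lower in libraries labelled knockout, against 0.985% and 2.65% of all genes tested. Chrdl1, a secreted BMP antagonist that astrocytes use to mature synapses, had 682, 797 and 1070 normalised reads in libraries labelled knockout, against 268, 413 and 351 in controls (log2 fold change 1.29, adjusted p = 0.00380). Thbs1, a thrombospondin gene whose product promotes synapse formation, had 6.71, 7.25 and 15.9 in libraries labelled knockout, against 188, 95.9 and 57.7 in controls. Thbs4, of the same family, had 49.5, 16.2 and 41.7 in libraries labelled knockout, against 189, 305 and 129 in controls. All 3 genes had separate groups, which for Thbs1 was a condition of naming it among the largest changes. The log2 fold changes were -2.89 for Thbs1 (adjusted p = 0.00386) and -2.41 for Thbs4 (adjusted p = 0.00524). Gas6, the ligand of TAM receptors, fell by 1.10 (adjusted p = 0.00320, r 0.45), and Ptn, the gene of pleiotrophin, rose by 0.92 (adjusted p = 0.0230). Of these 5 calls, that of Ptn alone was not kept in all 6 fits without 1 library.

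The counts in the remaining signalling lists stand against 0.985% higher and 2.65% lower of all genes tested. Of 33 growth factor and receptor genes, 2 were higher, Fgfbp3 and the GDNF receptor gene Gfra1, and 4 were lower, Igfbp5, the apelin gene Apln, Angpt1 and Fgf1. Apln had 148, 203 and 230 normalised reads in libraries labelled knockout, against 333, 622 and 830 in controls (log2 fold change -1.52, adjusted p = 0.0191). Of these 6 calls, that of Igfbp5 alone was kept in all 6 fits without 1 library. Of 18 genes of glucocorticoid and thyroid hormone handling, 0 were higher and 3 were lower. Among them were the thyroid hormone transporter gene Slco1c1 (log2 fold change -0.73, adjusted p = 0.0411) and Hsd11b1, whose enzyme regenerates active glucocorticoid (-1.35, adjusted p = 0.0226), whose calls were kept in 1 and 3 of those fits. Of 34 ion channel, connexin and water channel genes, Kcnd3, a potassium channel gene, was higher (log2 fold change 1.74, adjusted p = 0.00867), and Kcng4, Kcnq3 and Slc12a2 were lower. The calls of Kcng4 and Slc12a2 were kept in all 6 fits, that of Kcnd3 in 5 and that of Kcnq3 in 2. Of 21 interferon response genes, 2 were higher and 3 were lower. Ifit3 and Ifit3b, near-identical copies whose reads may be shared, rose by 1.38 and 1.69 on the log2 scale, and Ifi27, Ifih1 and Stat2 were lower. Ifi27 had an r of 0.56 and Ifih1 one of 0.39, and the part of choroid plexus RNA in their decreases was not tested. Of these 5 calls, that of Ifit3b alone was kept in all 6 fits. Of 29 Wnt pathway genes, Sfrp1 and Tcf7l2 were higher and 0 were lower, and of 30 Notch and BMP genes, Chrdl1 and the Notch feedback gene Nrarp were higher and Bmp6, a member of the choroid plexus set, was lower. The call of Chrdl1 was kept in all 6 fits, and those of Sfrp1, Tcf7l2, Nrarp and Bmp6 were each lost in at least 1. Of 37 extracellular matrix genes 0 were higher and 3 were lower, the protease inhibitor gene Timp2, the laminin gene Lamb1 and the heparan sulfate glycosyltransferase gene Extl1, with log2 fold changes of -0.73, -1.97 and -2.01. Lamb1 belonged to the choroid plexus set (r 0.82) and Timp2 had an r of 0.51, and 0 of the 3 calls were kept in all 6 fits. No gene was called of 30 for glycolysis, glycogen and lactate, of 27 for the immediate early and dissociation response or of 34 for cytosolic ribosomal proteins.

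**Figure D4:**
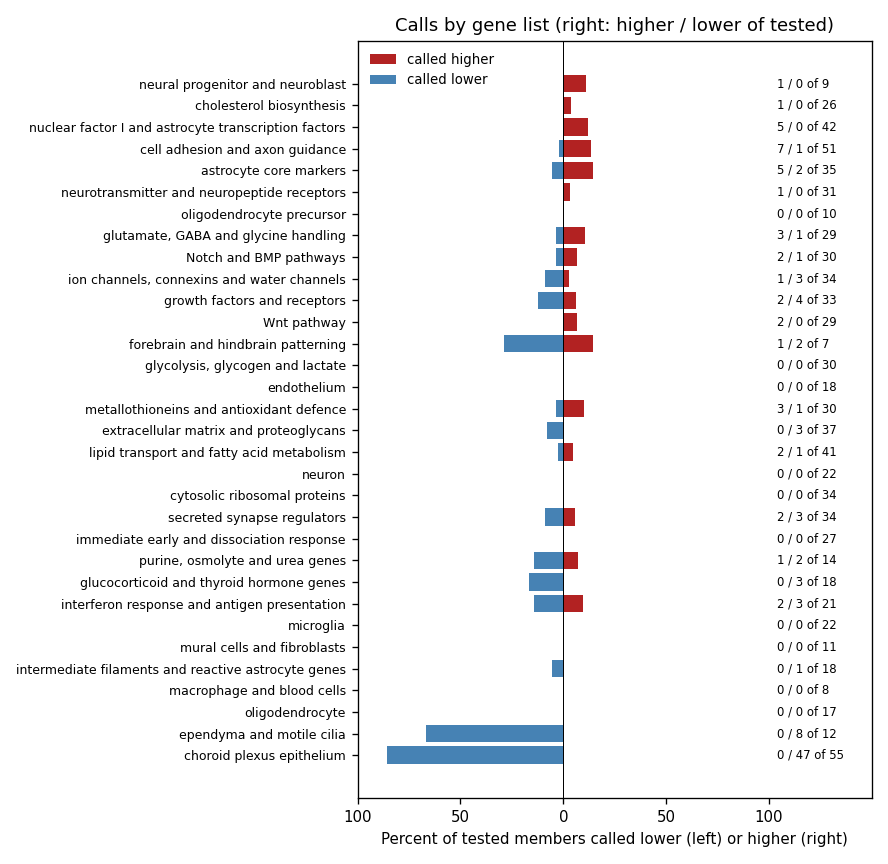
Percent of tested members of each gene list called lower (bars to the left) or higher (bars to the right) in hippocampal libraries labelled knockout, with the counts at the right edge; lists are ordered by median log2 fold change. The choroid plexus list (47 of 55 lower) and the ependymal list (8 of 12 lower) stand apart from the astrocyte lists, none of which has more than 7 genes called higher. Only members that passed the filter are counted, and some of the ependymal list passed through the controls alone.

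Markers of most other cell types the sort could hold gave no call. As 3.63% of all genes tested were called, 0 calls in lists this short do not show that cell content was alike. Microglia (22 tested), macrophages and blood (8), oligodendrocytes (17), their precursors (10), neurons (22), endothelium (18) and mural cells and fibroblasts (11) had 0 called genes, with median log2 fold changes of -0.26, -0.75, -0.77, 0.26, 0.02, 0.09 and -0.31. The summed oligodendrocyte markers were 14392 to 27662 in libraries labelled knockout and 20274 to 44268 in controls, and all 17 had a negative log2 fold change. The log2 fold change was positive for 4 of 22 microglial genes and 0 of 8 genes of macrophages and blood. It was positive for 7 of 10 precursor, 12 of 22 neuronal, 11 of 18 endothelial and 5 of 11 mural cell and fibroblast genes. Hemoglobin genes Hbb-bs, Hba-a1 and Hba-a2 and 14 patterning genes of the hindbrain and midbrain, among them Hoxa2, Hoxb3 and En1, were at 0 in all 6 libraries. How reads shared by similar gene copies were counted is not given. The 0 of the hemoglobin genes thus does not show that blood RNA was absent.

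The promoters of Gfap and of the genes with the smallest p in each direction among the largest changes outside the set were searched for nuclear factor I motifs, since NFIA is the factor targeted. Sequences come from RefSeq on GRCm38.p6 (mm10) and run from 250 bases before to 50 bases after the first listed start, read along the gene's own strand. They lie at chr11:102897151-102897450 (minus strand) for Gfap, chr17:7827253-7827552 (minus) for Fndc1, chr3:131491394-131491693 (minus) for Sgms2, chr7:57387166-57387465 (minus) for Gabrg3 and chr1:153740103-153740402 (plus) for Rgs16. Cdh4, Tex15, Sfrp1 and Fam84a are named only. Capitals mark the nuclear factor I core TTGGCA on either strand.
Gfap: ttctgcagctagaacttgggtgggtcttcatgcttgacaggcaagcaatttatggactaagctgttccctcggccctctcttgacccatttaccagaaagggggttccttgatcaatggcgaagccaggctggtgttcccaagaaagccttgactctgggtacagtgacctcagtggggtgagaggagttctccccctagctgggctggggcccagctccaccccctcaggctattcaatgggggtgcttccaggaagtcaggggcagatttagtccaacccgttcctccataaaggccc
Fndc1: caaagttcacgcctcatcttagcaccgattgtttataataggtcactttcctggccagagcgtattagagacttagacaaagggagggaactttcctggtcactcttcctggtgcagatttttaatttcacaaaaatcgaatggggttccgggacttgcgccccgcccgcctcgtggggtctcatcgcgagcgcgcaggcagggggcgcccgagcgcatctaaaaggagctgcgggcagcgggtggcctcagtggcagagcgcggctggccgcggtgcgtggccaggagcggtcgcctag
Sgms2: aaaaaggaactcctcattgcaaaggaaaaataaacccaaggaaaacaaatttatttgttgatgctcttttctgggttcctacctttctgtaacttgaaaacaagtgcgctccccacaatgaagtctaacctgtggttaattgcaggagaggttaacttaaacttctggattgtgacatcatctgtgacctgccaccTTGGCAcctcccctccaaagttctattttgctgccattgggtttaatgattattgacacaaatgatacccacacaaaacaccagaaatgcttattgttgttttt
Gabrg3: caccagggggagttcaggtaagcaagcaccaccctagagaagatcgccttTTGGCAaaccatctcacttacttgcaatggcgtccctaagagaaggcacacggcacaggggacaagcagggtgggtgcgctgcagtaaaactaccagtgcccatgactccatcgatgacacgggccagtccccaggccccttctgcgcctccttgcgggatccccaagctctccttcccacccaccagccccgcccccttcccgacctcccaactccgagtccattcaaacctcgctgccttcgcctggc
Rgs16: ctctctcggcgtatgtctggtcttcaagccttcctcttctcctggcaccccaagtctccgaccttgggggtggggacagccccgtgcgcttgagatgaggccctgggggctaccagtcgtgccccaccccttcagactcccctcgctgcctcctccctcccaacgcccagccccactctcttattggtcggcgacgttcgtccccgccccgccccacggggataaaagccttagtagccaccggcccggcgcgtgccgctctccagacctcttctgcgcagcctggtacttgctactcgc
The TTGGCA site began at base 51 of the Gabrg3 promoter and at base 197 of the Sgms2 promoter, counted from the 5′ end, and the letters were not in the other 3 windows. Of the higher genes outside the set, 7 of 73 with a promoter in the table held the TTGGCA site (9.59%), and of the lower genes 21 of 133 (15.8%). It was in 11.3% of the promoters of all genes tested in hippocampus and in 14.4% of all promoters of that length in the table. The palindrome of TGGC, 5 bases of any kind and GCCA, which can overlap the TTGGCA site, was in 1 promoter of the higher and 3 of the lower genes, against 0.696% of the genes tested. These matches are descriptions of the letters in the windows.

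The same genes were then read in olfactory bulb, cortex and brainstem, which have their own controls, although the labels do not say whether libraries of different regions came from the same animals. Brainstem labelled knockout 3 had 1090777 recovered reads, so 1 read there was 5.75 normalised reads, more than the 5 added before taking logs. Ribosomal precursor RNA took 2.14% to 20.8% of reads in olfactory bulb, 17.7% to 20.9% in cortex and 13.5% to 25.7% in brainstem. In hippocampus it took 0.966% to 2.87%. The libraries of the other regions also gave each gene's r. Of the 109 genes higher in hippocampus, the log2 fold change was positive for 101 in olfactory bulb, 98 in cortex and 95 in brainstem. Over all genes tested in hippocampus, 49.5%, 50.2% and 50.5% were positive in these 3 regions. Of the 63 lower genes with an r under 0.3, the log2 fold change was negative for 51, 54 and 45 in the same regions, and of the 124 lower genes of the choroid plexus set for 67, 113 and 123. The mean log2 level of the 5 choroid plexus genes was 3.29 to 3.40 in labelled knockouts and 3.36 to 3.71 in controls of olfactory bulb. In hippocampus that mean was 6.28 to 7.68 in labelled knockouts and 11.1 to 12.2 in controls. It was 4.74 to 7.67 in labelled knockouts and 6.34 to 10.4 in controls of cortex, and 6.79 to 10.9 in labelled knockouts and 10.6 to 12.8 in controls of brainstem, so these groups overlapped.

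Gfap averaged 1594 ± 198 in labelled knockouts and 3572 ± 465 in controls of olfactory bulb (SD, n = 3 each). In cortex it averaged 473 ± 53.1 in labelled knockouts and 901 ± 176 in controls, and in brainstem 2076 ± 912 in labelled knockouts and 1483 ± 313 in controls (SD, n = 3 each). The log2 fold changes were -1.16, -0.91 and 0.42, with adjusted p of 0.0395, 0.100 and 0.399. Hhatl and Kcng4 had log2 fold changes of -1.99 and -2.15 in olfactory bulb, -2.94 and -3.22 in cortex, and -0.78 and -0.45 in brainstem. Cdh4 had 0.78, 0.86 and 0.07, with adjusted p of at least 0.975 in each of the 3 regions. That fit of all 24 libraries gave Cdh4 an SE of 0.54, against 0.19 in the hippocampal fit. In olfactory bulb Cdh4 was at 1381 to 1578 in labelled knockouts and 813 to 871 in controls. In cortex it was at 306 to 332 and 154 to 210, so neither region's groups overlapped. In brainstem it was at 3.22 to 58.0 in labelled knockouts and 5.35 to 36.7 in controls.

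A difference between the hippocampal effect and the mean effect of the other 3 regions was tested in all 24 libraries. None of 12670 genes was called by limma (0%), and edgeR on recovered reads also called 0. At an unadjusted p under 0.05 there were 784 genes by limma and 852 by edgeR, and the smallest adjusted p was 0.0618. For Gfap the difference was -1.15 on the log2 scale (SE 0.27, adjusted p = 0.186), for Cdh4 1.34 (SE 0.62, adjusted p = 0.786) and for Prlr -3.62 (SE 1.31, adjusted p = 0.669). These values do not show that the effects were alike, and the shallow library brainstem labelled knockout 3 entered this test.

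**Figure D5:**
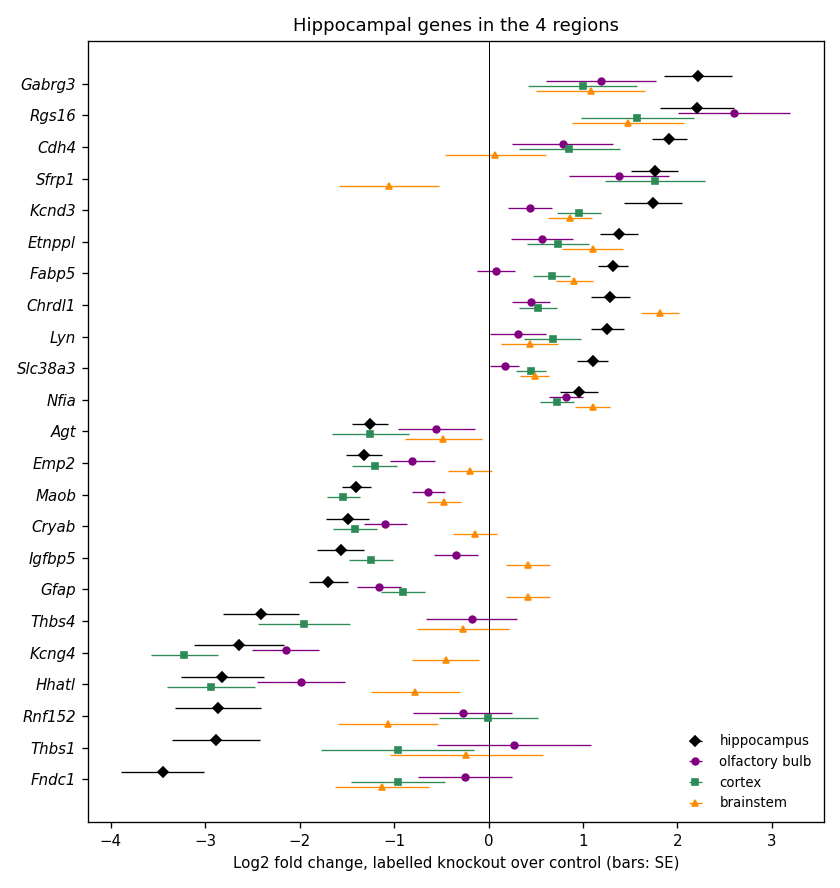
Log2 fold change of named genes, libraries labelled knockout over controls, in hippocampus (fit of the 6 libraries) and in olfactory bulb, cortex and brainstem (fit of all 24 libraries); bars are standard errors. Kcng4 and Hhatl are low in hippocampus, olfactory bulb and cortex, while Gfap is at -1.70 in hippocampus and at 0.42 in brainstem.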

How the data were processed

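The authors deposited 1 table per library with 1 value per gene name (24421 names). Per the submitters' processing notes, FastQC, STAR 2.5.0a, the mm10 build and DESeq2 1.20.0 were used. The counter, annotation and use of strand are not given in the sources used here, so antisense overlaps cannot be told apart. The deposited signal values were whole reads divided by 1 factor per library, which gave back whole reads for 100% of values within 0.01 read, as the whole-read steps of the values showed. Depth thus ranged from 5543804 to 24297573 reads in the 6 hippocampal libraries, and it limits genes near the filter most. Names were matched to GENCODE vM21 (23350 matched), and 27 names had been turned into dates.

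Genes with values of at least 20 in at least 3 of the 6 libraries were tested with limma 3.58.1 (R 4.3.3) on log2(value + 5), with an intensity trend, robust moderation and Benjamini-Hochberg adjustment, two-sided, and called at an adjusted p under 0.05. Fold changes are labelled knockout over control. The choroid plexus set joined a written list with genes whose Pearson r was at least 0.7. The difference between regions used all 24 libraries. Alternatives were edgeR 4.0.16 (TMM and RLE factors), DESeq2 1.42.0, voom with sample weights, pseudocounts of 1 and 20, other filters, rescaling without the choroid plexus set, thinned reads, a fit of all 24 libraries, other limits of r, a replicate block and leaving out each library. Scripts were tested on simulated data.

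Genes named were the targeted family, Gfap and Aldh1l1, the 15 largest changes each way with a mean of at least 50 and no overlap, the 5 choroid plexus genes and the 8 largest decreases of their set, and up to 4 called members of each list by p. The 10 higher genes and the 12 lower genes with an r under 0.3 of smallest p were added after values were seen, as were further called or uncalled members of lists. Members and lists were chosen with earlier results of these data known. Results of some genes are not reported here.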

Additional observations from a re-analysis of the deposited data

How the results depend on the processing

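The 402 calls in hippocampus and the 278 outside the choroid plexus set were 182 and 99 with no filter on low values, and 647 and 505 with DESeq2, which called 400 of the 402. Fits that left out 1 library gave 197 to 454 and 111 to 350, fewest without labelled knockout 3. The number of calls stayed within 1.5 times with edgeR (352, of which 346 were shared), with voom (384), after rescaling without the choroid plexus set (400), on thinned reads (397) and in the fit of all 24 libraries (318). A correlation limit of 0.5 left 204 calls outside the set, 0.8 left 314, and 0.3, added after seeing the data, left 165. The main fit did not pair samples by replicate number, and whether the numbers mark pairs was not settled. Same-numbered deviations correlated at 0.27, 0.02 and 0.36. Labelled knockouts 1 and 3 correlated best with the control of the same number, and labelled knockout 2 with control 1 (0.08). Replicate 1 of each group was the one with Y-linked reads, and Xist ranked the replicates alike in both groups. With a replicate block the counts were 730 and 588, and 13 for the difference between regions, where 0 were called. That difference had 1 call with a pseudocount of 1, and 0 to 1 without 1 library, the 1 call arising without hippocampal control 2. No named gene turned direction under any alternative. Of 102 named and called genes, 52 kept their call without each library in turn. The cause of these moves was not tested, except that a fit without a library has fewer samples.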

Other observations

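By chromosome, the share of tested genes called outside the choroid plexus set was 5.43% on chromosome X (7 higher and 13 lower of 368), and from 1.05% on chromosome 17 to 3.54% on chromosome 6 among the autosomes. This comparison was made after the values were seen, and no test was run on it. Xist, the X inactivation RNA, had 0, 1306 and 489 normalised reads in the libraries labelled knockout 1, 2 and 3, and 2.55, 1727 and 315 in controls 1, 2 and 3. The library of each group with Y-linked reads was thus the one with the least Xist. Ribosomal precursor RNA, listed as Rn45s, took 2.25% to 2.87% of reads in libraries labelled knockout and 0.966% to 2.36% in controls.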
